A study of Mus musculus with 9 samples.

Results

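The natriuretic peptide system was examined in the myocardium of mice labelled C57BL/6 (C57BL/6J in the study's methods) through the 8 genes of its ligands (Nppa, Nppb and Nppc), its receptors (Npr1, Npr2 and Npr3) and its processing enzymes (Corin and Furin), chosen by symbol from the 22851 genes of the count matrix. All 8 genes were in the matrix. The 9 libraries were 3 of non-diabetic control mice that were injected with buffer (CK), 3 of mice with diabetic cardiomyopathy at 12 weeks (DCM) and 3 of mice of the same diabetic model and duration that were also given spermine, a polyamine (SPM). The labels name no genetic change for any group. Diabetes was induced with streptozotocin, a toxin of the insulin-producing beta cells, and the tissue is whole myocardium with all of its cell types. The tissue label of the libraries is heart, whereas the extraction protocol deposited with them speaks of retinas. The study's methods describe a library both as the tissue of a single mouse and as a mix of hearts, so p-values measure the spread between these libraries.

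Among the natriuretic peptides, those of Nppa and Nppb are hormones that cardiomyocytes release when the heart walls are stretched. Atrial natriuretic peptide (ANP, from Nppa) and B-type natriuretic peptide (BNP, from Nppb) act through the membrane guanylyl cyclase Npr1, raise cGMP and so promote salt excretion and vasodilation, while C-type natriuretic peptide (CNP, from Nppc) acts through Npr2. Npr3 has no cyclase domain and takes the peptides up for degradation. Corin, a membrane protease of cardiomyocytes, cuts pro-ANP, and Furin is a general proprotein convertase that can cut pro-BNP. Nppa is made mainly in the atria of the adult heart, and its return in the ventricle together with Nppb is a textbook sign of cardiac load.

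The smallest library had 29901300 counts and the largest 39718680. The mitochondrial share of counts ranged from 13.7% to 16.2% over the CK libraries, from 15.5% to 18.9% over DCM and from 21.0% to 21.1% over SPM. Markers of cardiomyocytes summed to 34905 to 49528 normalized CPM (counts scaled to library size and TMM factor) over the 9 libraries, against 0.584 to 1.79 for the retina markers. Library SPM 2 lay between SPM 1 and SPM 3 for 67.6% of 13392 genes. A weighted mean with 45.0% of SPM 1 and the rest SPM 3 came nearest to it, with a median squared deviation of 0.410 in units of counting noise. This was the lowest of 252 combinations, in which each of the 9 libraries was set against pairs of the others. The next lowest, 1.16, was for SPM 3, and the next for SPM 2 was 1.17. By this measure SPM 2 could not be told apart from a mix of the other SPM libraries. It may therefore not be an independent replicate, in which case the n of 3, the SDs and the p-values of SPM rest on 2 libraries. For this reason results of SPM are also given without that library. A differentially expressed gene (DEG) had an adjusted p under 0.05 by edgeR's quasi-likelihood test over all genes tested, and a fold change of at least 1.5.

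Per unit of length, the ligand genes Nppa and Nppb were the most abundant of the 8 genes in every group. Nppa had a mean FPKM of 566 ± 137 in CK, 481 ± 122 in DCM and 802 ± 164 in SPM (SD, n = 3). Nppb followed at 212 ± 78.1, 205 ± 0.303 and 375 ± 132 FPKM, and the lowest Nppa library lay above the highest Nppb library in each group. Corin came next at 27.9 ± 1.88, 31.0 ± 4.0 and 33.9 ± 2.77 FPKM, and Furin stood at 25.3 ± 1.18, 29.4 ± 2.25 and 23.3 ± 1.44. The ranges of Corin and Furin overlapped in CK and DCM but not in SPM. The receptors were lower. Npr1 had 13.2 ± 0.311, 11.2 ± 1.26 and 9.88 ± 0.509 FPKM, and Npr2 had 14.1 ± 0.871, 14.6 ± 0.626 and 12.1 ± 0.578. These 2 cyclase receptors overlapped in CK and not in DCM or SPM, where Npr2 was the higher. Npr3 had the lowest mean of the receptors in CK and DCM at 6.26 ± 1.22 and 8.47 ± 1.65 FPKM, where its highest DCM library overlapped the lowest of Npr1, and reached 12.2 ± 3.59 in SPM, a range that spanned those of both other receptors. Nppc had a mean of 0.110 FPKM in CK and was listed at 0 in DCM and SPM.

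**Figure D1:**
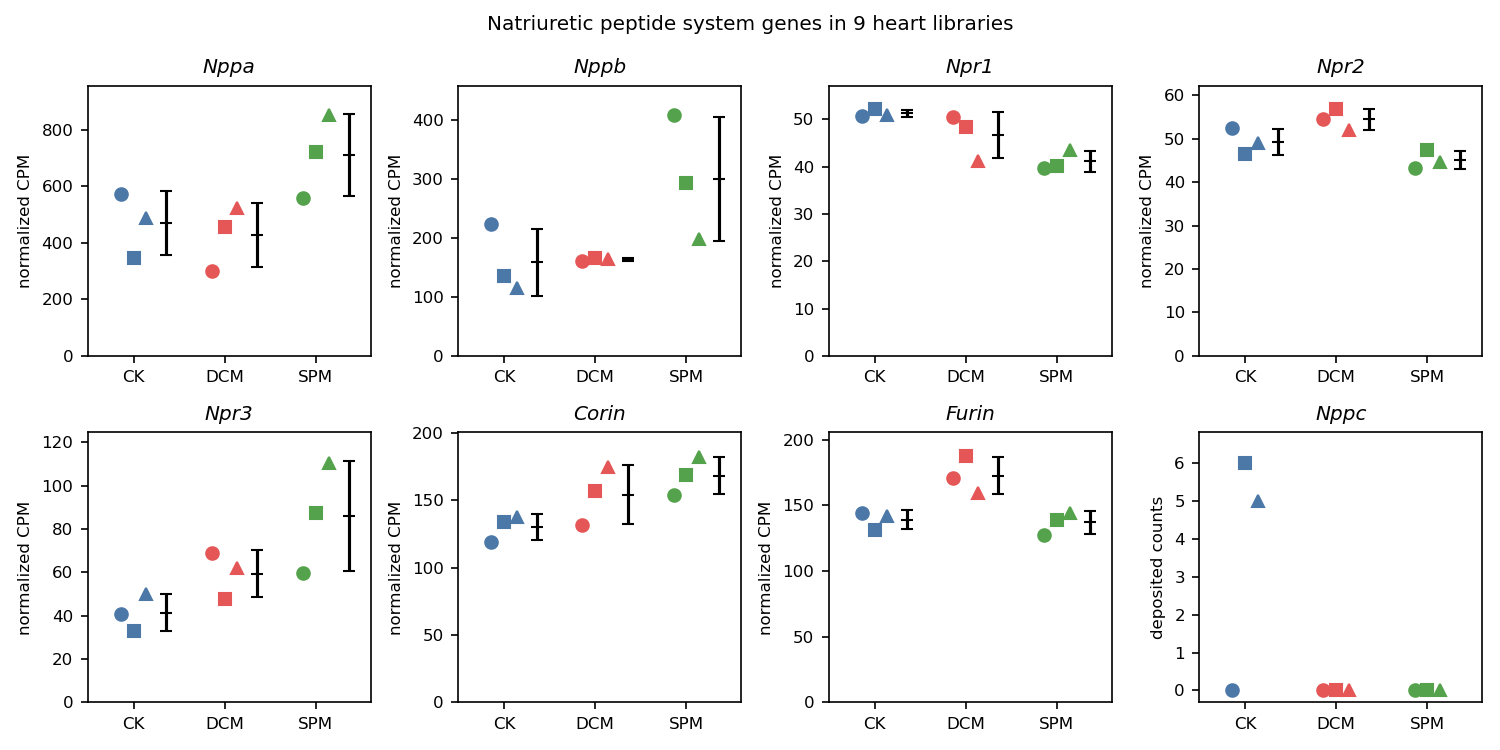
Normalized CPM of 7 genes and, for Nppc, deposited counts (vertical axes, from 0 or just below it for Nppc) in CK, DCM and SPM (horizontal axis). Circles, squares and triangles are replicates 1, 2 and 3, and black bars are the mean ± SD of 3 libraries. Nppa and Nppb lay above all DCM libraries in SPM, and Npr3 lay above all CK libraries in SPM.

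Nppa, the gene of ANP, lies on the plus strand at chr4:148000722-148002079 (GENCODE M21, build GRCm38). The antisense gene Gm13054, which overlaps Nppa, held 75 counts over the 9 libraries against 155423 of Nppa. Normalized CPM of Nppa was 574, 347 and 488 in CK 1 to 3. The DCM libraries had 302, 454 and 522, and the SPM libraries 559, 719 and 850. The CK and DCM libraries overlapped over most of their range, every SPM library lay above every DCM library, and SPM 1 lay just below CK 1. Nppb, the gene of BNP, lies upstream of Nppa on the same strand at chr4:147985788-147987205, and 13516 bases separate its end from the start of Nppa. Normalized CPM of Nppb was 224, 136 and 116 in CK. In DCM it was 160, 166 and 164, and in SPM 408, 293 and 198. The DCM libraries were close to each other and within the CK range, every SPM library lay above every DCM library, and SPM 3 lay below CK 1. Within SPM the order of the libraries was opposite for the pair, since SPM 3 was highest for Nppa and lowest for Nppb.

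The sequences upstream of the pair are shown because Nppa and Nppb were the members upregulated in SPM compared to DCM. They come from RefSeq windows of 300 bases (250 before to 50 after a start, build GRCm38.p6), of which the 8 genes matched 9. Capitals mark TGATAA and AGATAA, which are forms of the motif bound by GATA factors, and TATAAA, the letters of a TATA box. The first line is the 250 bases before the Nppa start, chr4:148000472-148000721, and the second is 30 bases around the GATA motifs of Nppb, chr4:147985799-147985828, both read from the plus strand. GENCODE M21 places the start of Nppb further upstream than RefSeq, so that by GENCODE these 30 bases are in the first exon, in the 5′ UTR.
Nppa: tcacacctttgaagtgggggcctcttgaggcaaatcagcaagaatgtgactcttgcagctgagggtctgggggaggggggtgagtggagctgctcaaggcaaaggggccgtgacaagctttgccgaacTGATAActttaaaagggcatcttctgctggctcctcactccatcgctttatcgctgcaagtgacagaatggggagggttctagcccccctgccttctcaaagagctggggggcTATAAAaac
Nppb: tgcagcTGATAAatcagAGATAAccccacc
TGATAA began 122 bases before the RefSeq start of Nppa and 95 bases before that of Nppb, and on either strand it was in no window of the other 6 genes. It was present in 9.05% of all 32851 windows, and AGATAA, which began 84 bases before the Nppb start, in 11.2%. TATAAA was in the windows of Nppa, Nppb, Nppc and Furin and in 13.6% of all. It began 9 bases before the RefSeq start of Nppa, against 31 for Nppb, 29 for Nppc and 23 for Furin. Of other cardiac motifs searched on both strands, AAGTG (bound by Nkx2-5, in 46.4% of all windows) was in the windows of Nppa and Furin. AGGTGT and GTGTGA (bound by T-box factors, in 13.7% and 14.5% of all) overlapped each other at the far end of the Nppa window, and AGGTGT was also in that of Npr2. CATTCC (bound by TEAD factors, in 14.7%) was 105 bases before the Nppb start on the minus strand. The CArG box and the MEF2 site, found in 1.63% and 0.557% of all windows, matched in none of the 8 genes. A match describes letters and not binding.

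In DCM compared to CK, none of the 7 tested members was a DEG by edgeR, where 4.34% of 14402 genes tested were DEGs. DESeq2 and limma on log2(FPKM + 0.1) also gave 0, and 3 members had an unadjusted p under 0.05 by edgeR, as 24.6% of genes did. Furin and Npr3 passed the adjusted p alone, as 10.4% of genes did. Both were higher in DCM, Furin with a log2 fold change of 0.31 (SE 0.08, edgeR adjusted p = 0.0248) and Npr3 with 0.53 (SE 0.15, adjusted p = 0.0416). Each passed in 9 of the 15 alternatives run. Furin no longer passed without CK 2 (adjusted p by edgeR 0.128), CK 3, DCM 1 or DCM 2, with the replicate block (0.0509) or by limma (0.0912). Npr3 no longer passed without CK 1, CK 2 (adjusted p by edgeR 0.158), DCM 1 or DCM 3, in a single fit of all 9 libraries (0.124) or by limma (0.145). The peptide genes did not pass. Nppa had a log2 fold change of −0.14 (SE 0.19, edgeR adjusted p = 0.712), which was 0.06 without DCM 1 and 0.03 without CK 1. Nppb had 0.04 (SE 0.18, edgeR adjusted p = 0.918). Without CK 1, the highest of its group, Nppb gave 0.38 with an edgeR adjusted p of 0.0134, and without CK 3 it gave −0.14. The log2 fold change was −0.14 for Npr1, 0.14 for Npr2 and 0.24 for Corin. For 2 members, Furin and Npr1, the CK and DCM libraries did not overlap, as was so for 29.3% of genes tested.

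**Figure D2:**
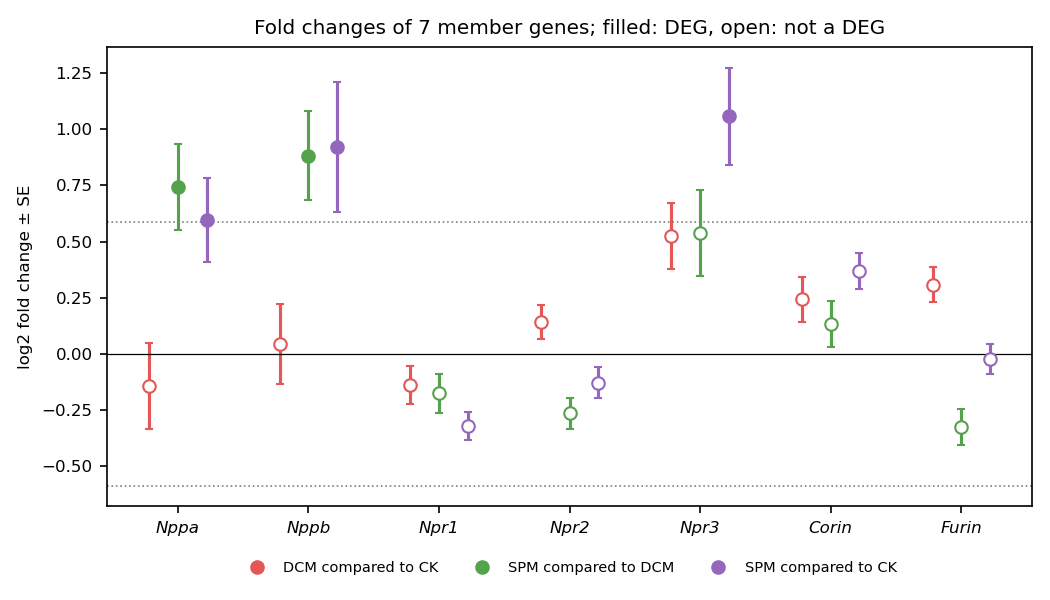
Log2 fold changes of 7 genes (vertical axis, with standard errors by edgeR) for DCM compared to CK, SPM compared to DCM and SPM compared to CK. Filled points are DEGs and dotted lines mark a fold change of 1.5. Nppa and Nppb were DEGs in both comparisons of SPM, and Npr3 in SPM compared to CK.

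In SPM compared to DCM, 2 of the 7 tested members were DEGs, both of them ligand genes and both upregulated, where 3.59% of 14493 genes tested were DEGs and 2.7% were upregulated DEGs. Nppb had a log2 fold change of 0.88 (SE 0.20, edgeR adjusted p = 0.0201) and Nppa of 0.74 (SE 0.19, edgeR adjusted p = 0.0292). With 3 libraries a group these calls were near the threshold. Without SPM 2, Nppa gave 0.73 (edgeR adjusted p = 0.0825) and Nppb 0.90 (edgeR adjusted p = 0.0566), so that 0 members were DEGs, where 0.378% of 14828 genes were DEGs without that library. The Nppa call was also lost without DCM 1 (0.54, edgeR adjusted p = 0.0771) and without DCM 2 (0.79, edgeR adjusted p = 0.104). The Nppb call was lost without any 1 of the DCM libraries (log2 fold changes 0.86 to 0.89) and, by the fold limit, without SPM 1 (0.58, edgeR adjusted p = 0.0152). DESeq2 called Nppb (adjusted p = 0.0247) and not Nppa (adjusted p = 0.0508), and limma on FPKM called neither (adjusted p = 0.0515 and 0.0554). All log2 fold changes of both genes in this comparison, 0.54 to 1.10 over the alternatives run, were above 0.

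Markers of atrial myocytes were counted beside Nppa, which is made mainly in the atria. Of the 14 markers, 11 were lower in DCM compared to CK, with a median log2 fold change of −0.32 against 0.00 for all genes. DEGs were 4.34% of all genes, and 3 of the markers were downregulated DEGs. These were the atrial light chain gene Myl4 (−0.96), the sarcolipin gene Sln (−1.04) and the myosin-binding protein gene Mybphl (−1.04). Relative to DCM, 9 of the 14 were higher in SPM, with a median of 0.33 against 0.01 for all genes. The channel gene Kcnj3 (0.61) was the 1 DEG of the 14, where 3.59% of all genes were DEGs. Without SPM 2, SPM 3, DCM 1 or DCM 2, Kcnj3 was no DEG (0.50 to 0.60). In SPM compared to CK, where Nppa was also higher, 7 of the 13 tested markers were higher, with a median of 0.05 against 0.00 for all genes. The DEG there, against 9.21% of all genes, was the downregulated nuclear receptor gene Nr2f1. It had −0.84 (SE 0.21, edgeR adjusted p = 0.0192) and did not pass without SPM 2 (−0.79, edgeR adjusted p = 0.103). Without SPM 2 the median of this list, with 14 markers tested, was −0.11. The sum over the 14 markers ranged from 2566 to 3079 normalized CPM over the CK libraries, from 2119 to 2862 over DCM and from 2591 to 3592 over SPM. Pam and Clu, the most abundant of the 14, made up a large part of it. Their means in CK, DCM and SPM were 945, 989 and 1232 for Pam and 761, 875 and 867 for Clu. In SPM compared to CK, Pam had 0.38 (edgeR adjusted p = 0.0329, and 0.0964 without SPM 2). Myl4, Sln and Mybphl had −0.37, −0.56 and −0.36 there and did not pass. None of the 14 was at 0 in any group. DCM 1 was lowest both for this sum and for Nppa, and SPM 3 was highest for both, whereas Nppb was highest in SPM 1, whose sum was the lowest of the SPM libraries. The part of atrial content in the Nppa result was not tested. In whole tissue, fewer cells of a type and less RNA per cell cannot be told apart.

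**Figure D3:**
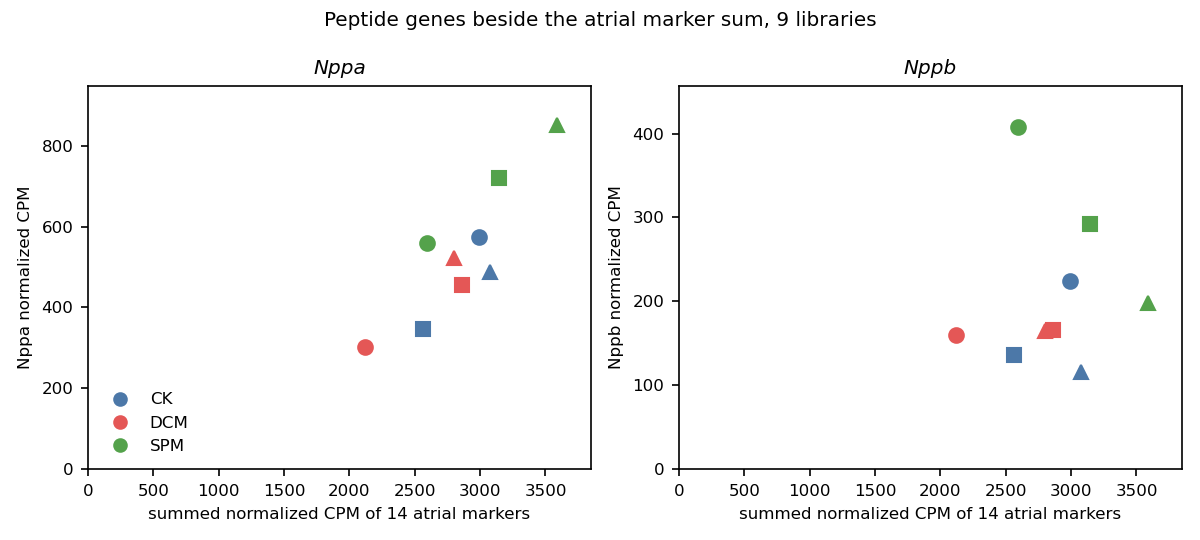
Normalized CPM of Nppa (left) and Nppb (right) on the vertical axes against the summed normalized CPM of 14 atrial markers on the horizontal axis, both from 0, with 1 point per library, coloured by group (circles, squares and triangles are replicates 1, 2 and 3). DCM 1 was lowest and SPM 3 highest on both axes for Nppa, while Nppb was highest in SPM 1. Pam and Clu made up a large part of the marker sum.

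Markers of macrophages moved in SPM as well. All 7 were higher in SPM compared to DCM, with a median log2 fold change of 0.62 against 0.01 for all genes. Of the 7, 4 were DEGs, against 3.59% of all genes. The sum of the 7 was 1097, 828 and 660 normalized CPM in SPM 1 to 3, in the order of Nppb, and 557 to 650 in DCM. In CK it was 661 to 860, above all DCM libraries, while Nppb of CK and DCM overlapped. A shared order within SPM says little, since SPM 2 lay between the others for most genes. The sums of ventricular myocyte (13374, 12543 and 11974), smooth muscle (472, 408 and 353) and adipocyte markers (89.4, 77.5 and 65.9) also fell from SPM 1 to SPM 3. Those of cardiomyocyte, fibroblast and endocardial markers rose. Lyz2, the lysozyme gene of macrophages and the most abundant of the 7, had a log2 fold change of 0.62 (SE 0.18, edgeR adjusted p = 0.0399) in SPM compared to DCM. Without SPM 2, all 7 were still higher (median 0.67) and 0 were DEGs, where 0.378% of all genes were. The part of macrophage content in the Nppb result was not tested.

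In SPM compared to CK, 3 of the 7 tested members were DEGs, all upregulated, where 9.21% of 14574 genes tested were DEGs and 5.08% were upregulated DEGs. Npr3 had the largest change, 1.06 (SE 0.22, edgeR adjusted p = 0.00901). Nppb had a log2 fold change of 0.92 (SE 0.29, edgeR adjusted p = 0.0437) and Nppa of 0.60 (SE 0.19, edgeR adjusted p = 0.0451). The Npr3 call held in all 15 alternatives run, with log2 fold changes of 0.83 to 1.26, and without SPM 2, where 5.18% of genes were DEGs, Npr3 was the 1 DEG among the members. The Nppa and Nppb calls each held in 8 of 15 and were lost by DESeq2 (adjusted p = 0.0887 and 0.0986), by limma and without SPM 2 (edgeR adjusted p = 0.11 and 0.092), CK 2 (0.115 and 0.141) or CK 3 (0.101 and 0.138). A single fit of all 9 libraries lost that of Nppa (edgeR adjusted p = 0.0519), and the offset for GC content lost that of Nppb (edgeR adjusted p = 0.0553). Without SPM 1 the Nppb call (0.63, edgeR adjusted p = 0.11) was lost, and without SPM 3 the Nppa call (0.45, edgeR adjusted p = 0.0995). The adjusted p alone was passed by 5 members, the DEGs with Npr1 and Corin, as by 27.4% of genes. For 3 members, Npr1, Npr3 and Corin, the libraries of the groups did not overlap, against 46.1% of genes.

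Nppc, the gene of CNP (chr1:86666291-86670571, minus strand), was at the limit of detection. It had 0, 6 and 5 counts in CK 1 to 3 and 0 counts in each DCM and SPM library. The low-count filter left it out of the tests. A floor of 3 counts over a group lay 4.11-fold in DCM and 3.78-fold in SPM under the pooled CK level, which was taken as exact. CK 1 had 0 counts as well, so a decrease is not established. Fitted without the filter, it did not pass by edgeR (adjusted p = 0.127 in DCM and 0.11 in SPM compared to CK). The floor covers counting error in DCM and SPM alone, and not that of the CK counts or the spread between libraries.

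Npr3, the clearance receptor (chr15:11839896-11907287, minus strand), had a normalized CPM of 40.9, 33.0 and 50.1 in CK. The DCM libraries had 68.8, 47.7 and 61.8, and the SPM libraries 59.8, 87.5 and 111. Every SPM library lay above every CK library, while DCM 2 lay inside the CK range and SPM 1 inside the DCM range. Relative to DCM, its log2 fold change in SPM of 0.54 (SE 0.19, edgeR adjusted p = 0.0773) did not pass. It passed as a DEG without SPM 1 (0.73, edgeR adjusted p = 0.00835). In DCM compared to CK it exceeded the fold limit without CK 3 (0.69, edgeR adjusted p = 0.0085) or without DCM 2 (0.66, edgeR adjusted p = 0.0224). Npr3 is also made by endocardial cells, and the sum of 8 endocardial markers ranged from 391 to 448 normalized CPM over CK, from 519.6 to 778 over DCM and from 520.1 to 644 over SPM. Vwf alone made up most of this sum, with means of 263 in CK, 455 in DCM and 411 in SPM. Cytl1, the next most abundant, had −0.09 (edgeR adjusted p = 0.695) in SPM compared to CK. In SPM compared to DCM it had −0.58 (edgeR adjusted p = 0.0407, and 0.107 without SPM 2). Relative to CK, 5 of the 8 were higher in SPM, with a median of 0.43 against 0.00 for all genes. Of the 8, 2 were upregulated DEGs and 1 was a downregulated DEG, where 9.21% of all genes were DEGs. Vwf, the von Willebrand factor gene and the most abundant of them, had 0.65 (SE 0.08, edgeR adjusted p = 0.00129), and Tmem108, a membrane protein gene, 0.63 (SE 0.10, edgeR adjusted p = 0.00315). Ramp3, a receptor activity-modifying protein gene, had −0.66 (SE 0.11, edgeR adjusted p = 0.00459). All 3 were DEGs without SPM 2 as well, where 5.18% of all genes were. None of the 8 was at 0 in any group, and their part in the Npr3 result was not tested.

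Npr1, the cyclase receptor of ANP and BNP (chr3:90450591-90465866, minus strand), had a normalized CPM of 50.7, 52.1 and 50.9 in CK. The DCM libraries had 50.4, 48.3 and 41.1, and the SPM libraries 39.7, 40.02 and 43.6. All SPM libraries lay below all CK libraries, and DCM 3 lay inside the SPM range. The log2 fold change of SPM compared to CK was −0.32 (SE 0.06, edgeR adjusted p = 0.00802), a significant decrease under the fold limit. It was −0.15 (edgeR adjusted p = 0.143) with an offset for GC content, and −0.30 (edgeR adjusted p = 0.0644) without SPM 2. Npr2, the receptor of CNP (chr4:43631935-43651244, plus strand), had 52.4, 46.5 and 48.9 normalized CPM in CK, 54.5, 56.8 and 52.0 in DCM and 43.2, 47.5 and 44.7 in SPM. Every SPM library lay below every DCM library, with a log2 fold change of −0.26 (SE 0.07, edgeR adjusted p = 0.0317), again under the fold limit. It passed without DCM 3 (edgeR adjusted p = 0.0336) and not with any other library left out (−0.30 and adjusted p = 0.11 without SPM 2). The antisense gene Gm12473 overlaps Npr2 and held 1677 counts over the 9 libraries against 14690 of Npr2, and no source used here states whether the counting used strand.

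The ratio of the clearance receptor to the cyclase receptor within a library does not depend on how libraries are scaled. It does not remove the trend with GC content given below, and the transcript of Npr3 had 44.0% GC and that of Npr1 57.4%. With the GC offset, the log2 fold change in SPM compared to DCM was 0.38 in place of 0.54 for Npr3. For Npr1 it was 0.02 in place of −0.18. The ratios were taken without this offset. The ratio of Npr3 to Npr1 counts was 0.807, 0.633 and 0.983 in CK, 1.37, 0.988 and 1.5 in DCM and 1.51, 2.19 and 2.54 in SPM. No library of a group overlapped another group, although CK 3 and DCM 2, and likewise DCM 3 and SPM 1, nearly met. The means were 0.808 ± 0.175, 1.29 ± 0.267 and 2.08 ± 0.524 (SD, n = 3). Each of the 3 comparisons gave p = 0.1 in a two-sided exact permutation test of the log2 ratio, the smallest that 3 against 3 libraries can give, and with 6 such tests of ratios none can pass. Without SPM 2 the direction was the same in both comparisons of SPM. As FPKM, Npr3 exceeded Npr1 in SPM 2 (ratio of FPKM 1.29) and SPM 3 (1.5) and in no other library. The ratio of Nppb to Nppa counts overlapped between all groups, with means of 0.339 ± 0.088, 0.404 ± 0.113 and 0.457 ± 0.253 and exact permutation p of 0.6, 0.9 and 0.5. It ran from 0.233 in SPM 3 to 0.730 in SPM 1, while the CK and DCM libraries lay between 0.238 and 0.531.

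**Figure D4:**
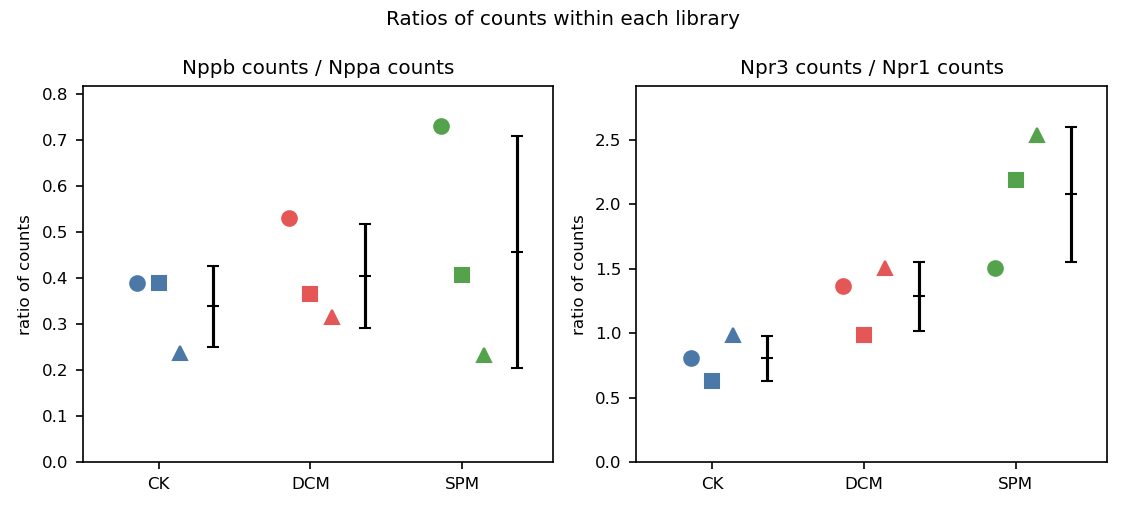
Ratio of counts (vertical axes, from 0) of Nppb to Nppa and of Npr3 to Npr1 in each library of CK, DCM and SPM. Circles, squares and triangles are replicates 1, 2 and 3, and black bars are the mean ± SD of 3 libraries. Npr3 to Npr1 did not overlap between groups, with means of 0.808, 1.29 and 2.08, whereas Nppb to Nppa overlapped between all groups. The ratios were taken without the offset for GC content.

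Corin, the pro-ANP protease (chr5:72300025-72504473, minus strand), had a normalized CPM of 119, 134 and 137 in CK, 132, 157 and 175 in DCM and 154, 169 and 182 in SPM. All SPM libraries lay above all CK libraries, and the DCM range overlapped both. Relative to CK, its log2 fold change in SPM was 0.37 (SE 0.08, edgeR adjusted p = 0.0112), and the adjusted p stayed under 0.05 in all 15 alternatives run (highest 0.0497, without SPM 2). Furin (chr7:80388585-80405436, minus strand) had 144, 131 and 142 normalized CPM in CK, 171, 187 and 159 in DCM and 128, 139 and 144 in SPM. Its mean, like that of Npr2, was highest in DCM, and the DCM libraries of Furin overlapped neither CK nor SPM. From DCM to SPM its log2 fold change was −0.33 (SE 0.08, edgeR adjusted p = 0.025), and in SPM compared to CK −0.02 (SE 0.07, edgeR adjusted p = 0.829). The decrease did not pass without SPM 2 (edgeR adjusted p = 0.105), DCM 1 (0.0657) or DCM 2 (0.0875), or with the GC offset (−0.16, edgeR adjusted p = 0.179). Between SPM and DCM, 4 members did not overlap between the groups (Nppa, Nppb, Npr2 and Furin, against 39.5% of genes), and the same 4 passed the adjusted p alone, as 16.6% of genes did.

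The members differ in GC content, which moved with the fold changes of all genes in SPM compared to DCM. Spearman's rho between the GC content of a gene and its log2 fold change was −0.502 across 14484 genes, which share libraries and are not replicates. It was −0.366 in SPM compared to CK and 0.0602 in DCM compared to CK. The transcripts of Npr1, Furin, Nppa and Npr2 had 57.4%, 55.9%, 55.3% and 55.0% GC, those of Corin and Nppb 48.4% and 47.9%, and that of Npr3 44.0%. With an offset for this trend, the change in SPM compared to DCM was 0.02 in place of −0.18 for Npr1, −0.11 in place of −0.26 for Npr2 and 0.38 in place of 0.54 for Npr3. For Nppa it was 0.89 (edgeR adjusted p = 0.0481) and for Nppb 0.85 (edgeR adjusted p = 0.0531), where 0.869% of genes were DEGs with the offset.

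Genes of cGMP signalling and peptide breakdown (26 listed, 23 in the matrix) were looked at next. In DCM compared to CK, 1 of 22 tested was a DEG, against 4.34% of all genes. It was Rgs4, a regulator that shortens G-protein signals, with −0.67 (SE 0.10, edgeR adjusted p = 0.00145). From DCM to SPM, 2 of 21 were upregulated DEGs, against 2.7% of all genes, and none was a downregulated one. Prkg1, the cGMP-dependent protein kinase, had 8.07 to 9.81 normalized CPM in DCM and 13.3 to 14.6 in SPM, with no overlap and a log2 fold change of 0.67 (SE 0.11, edgeR adjusted p = 0.00986). Dpp4, a peptidase that can trim BNP, had 0.64 (SE 0.19, edgeR adjusted p = 0.0485). Without SPM 2, and with the GC offset, neither was a DEG, and Dpp4 was none without SPM 3 or any DCM library either (0.53 to 0.80). Between SPM and CK, 3 of 21 were DEGs, against 9.21% of all genes. These 3 were DEGs without SPM 2 as well, where 5.18% of all genes were. Prkg1 was upregulated with 0.84 (SE 0.18, edgeR adjusted p = 0.0102), as was the phosphodiesterase gene Pde1c with 0.64 (SE 0.09, edgeR adjusted p = 0.00203), which fell under the fold limit without CK 1 (0.56) or SPM 1 (0.58). Rgs4 was downregulated with −0.79 (SE 0.09, edgeR adjusted p = 0.00112). Pde3a, the cGMP-inhibited phosphodiesterase and the most abundant of the list, had 0.46 (SE 0.12, edgeR adjusted p = 0.0194), which did not pass without SPM 2 (edgeR adjusted p = 0.0625). Pcsk6, a convertase that cuts pro-corin, had −0.49 (SE 0.09, edgeR adjusted p = 0.00658). The median log2 fold change of the list was −0.06, −0.01 and −0.06 in the 3 comparisons, against 0.00, 0.01 and 0.00 for all genes.

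**Figure D5:**
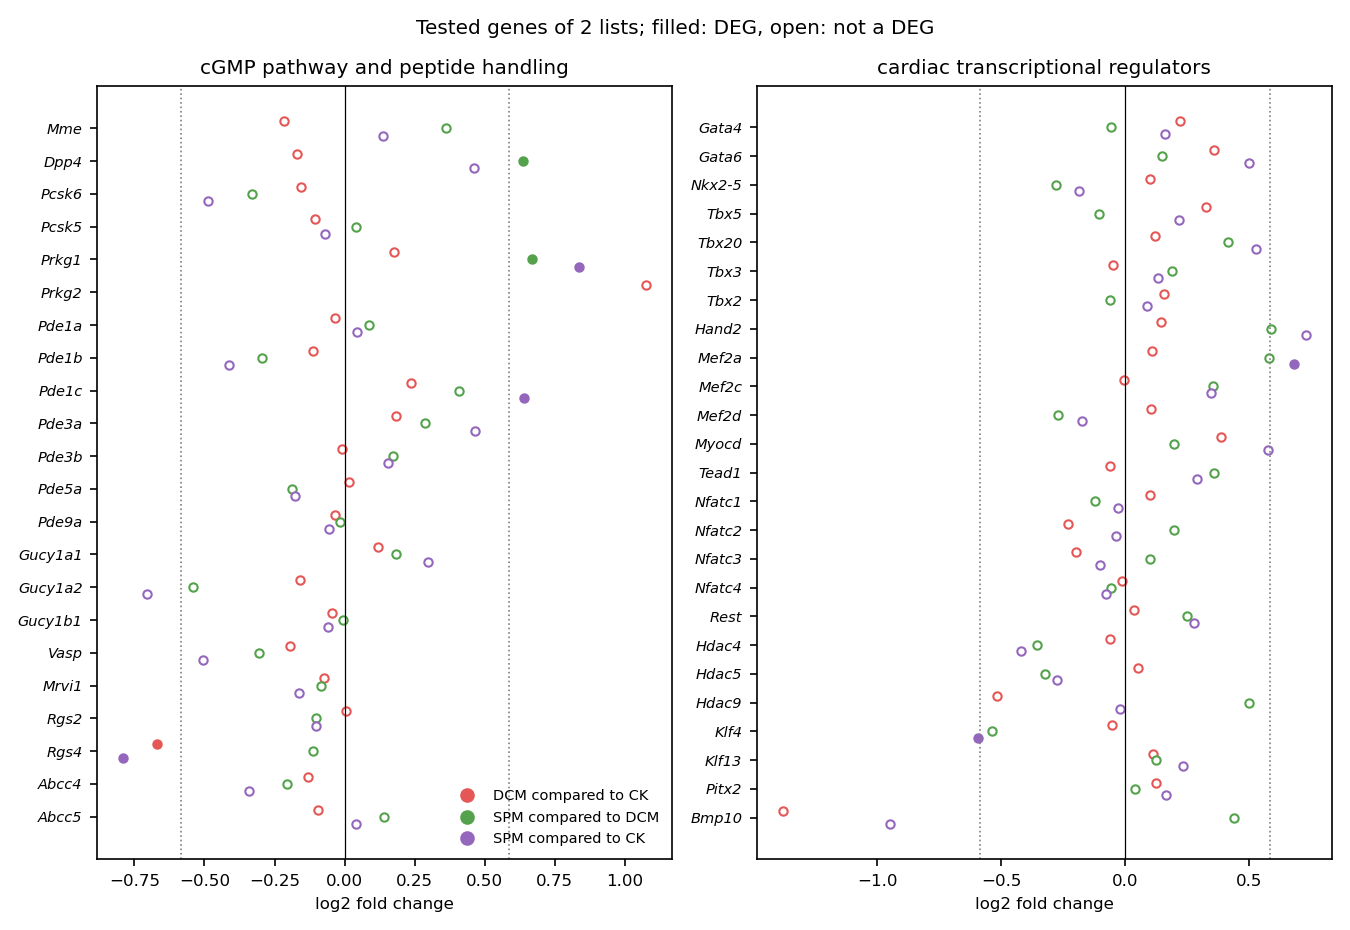
Log2 fold changes (horizontal axes) of the tested genes of cGMP signalling and peptide handling (left) and of cardiac transcriptional regulators (right) in the 3 comparisons, which are told apart by colour. Filled points are DEGs and dotted lines mark a fold change of 1.5. Prkg1, Dpp4, Pde1c and Rgs4 are the DEGs of the left list and Mef2a and Klf4 those of the right one.

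Of 25 tested cardiac transcriptional regulators, which include known activators of Nppa and Nppb, none was a DEG in DCM compared to CK or in SPM compared to DCM by edgeR, and DESeq2 and limma gave 0 in both. At an unadjusted p under 0.05, edgeR gave 8 and 14, against 24.6% and 34.6% of all genes. The adjusted p alone was passed by 4 in DCM compared to CK (3 higher, 1 lower), against 10.4% of all genes, and by 10 in SPM compared to DCM (5 higher, 5 lower), against 16.6%. Without SPM 2, 0 of the 25 passed it by edgeR in SPM compared to DCM, where 0.486% of all genes did, and the lowest edgeR adjusted p was 0.0564, of Hdac9, a histone deacetylase gene. Between SPM and CK, 2 were DEGs, against 9.21% of all genes. Mef2a, a MADS-box activator of muscle genes, was upregulated with 0.68 (SE 0.15, edgeR adjusted p = 0.0107), and Klf4, a zinc-finger factor, was downregulated with −0.59 (SE 0.17, edgeR adjusted p = 0.0337). Without SPM 2 and with the GC offset, neither was a DEG. The offset, with which 7.25% of all genes were DEGs, gave 2 other regulators as upregulated DEGs, Gata6 and Myocd, which are named because of that result. Before the offset these had 0.50 (SE 0.11, edgeR adjusted p = 0.0103) and 0.58 (SE 0.08, edgeR adjusted p = 0.00195), under the fold limit. Mef2a was none without CK 1 (0.57), nor Klf4 without CK 2 (−0.62), CK 3 (−0.45) or SPM 1 (−0.44). Gata4, the GATA factor of cardiomyocytes and the third most abundant of the list, ranged from 155 to 163 normalized CPM over CK, from 175 to 192 over DCM and from 175 to 181 over SPM. The CK libraries lay below all others, and the log2 fold change was 0.22 (SE 0.07, edgeR adjusted p = 0.0623) in DCM and 0.16 (SE 0.05, edgeR adjusted p = 0.0523) in SPM compared to CK. Mef2d and Hdac5, the other abundant members, had −0.27 (SE 0.07, edgeR adjusted p = 0.0302) and −0.32 (SE 0.06, edgeR adjusted p = 0.0149) in SPM compared to DCM, and neither passed without SPM 2 (edgeR adjusted p = 0.147 and 0.0981).

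Genes of the hypertrophic programme, among which Nppa and Nppb are usually counted, gave the following values. Myh7, the slow myosin heavy chain gene, was an upregulated DEG in DCM compared to CK with 2.82 (SE 0.24, edgeR adjusted p = 2.52e-05) and again in SPM compared to DCM with 1.24 (SE 0.27, edgeR adjusted p = 0.0191). The latter did not pass without SPM 2 (1.25, edgeR adjusted p = 0.0566) or without any of the DCM libraries (1.10 to 1.49). Myh7 had 4830, 3366 and 2033 normalized CPM in SPM 1 to 3, the order of Nppb and the reverse of that of Nppa. As SPM 2 lay between the others for most genes, a shared order says little. Ankrd1, a stretch-responsive nuclear factor gene, had 0.21 (SE 0.09, edgeR adjusted p = 0.174) in DCM compared to CK and 0.85 (SE 0.09, edgeR adjusted p = 0.00652) in SPM compared to DCM. Of the 12 genes of the list in the matrix, 3 were DEGs in DCM compared to CK, against 4.34% of all genes. These were Myh7 and the metallothionein genes Mt1 (0.94) and Mt2 (1.48). In SPM compared to DCM 2 of 11 tested were DEGs, against 3.59%, and all DEGs of both comparisons were upregulated. The list as a whole did not rise from DCM to SPM. Of the 11 genes, 7 had a log2 fold change below 0 and 4 above it. Their median was −0.13, while that of all genes was 0.01. Myh6, Atp2a2 and Actn2, the most abundant of the list, had −0.29, −0.10 and −0.13 there and did not pass (edgeR adjusted p = 0.165, 0.507 and 0.409). In SPM compared to CK, 3 of 12 were upregulated DEGs and 1, Ankrd2 (−4.18), was downregulated, against 9.21%. Ankrd2 was near the floor, with a mean of 0.449 normalized CPM in CK. Without SPM 2, Ankrd1 was the 1 DEG in SPM compared to DCM (edgeR adjusted p = 0.0217), against 0.378% of all genes. In SPM compared to CK, 3 of 12 were DEGs without that library, against 5.18% of all genes. No difference between these genes and the peptide genes was tested.

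By the mean absolute difference of centred log2 CPM over the 9 libraries, the gene nearest to Nppa was Eya1, a transcriptional coactivator gene (0.125), followed by Sbk3, a kinase gene (0.155), against a median of 0.392 over 12612 genes. Sbk3 had 51.0, 40.7 and 60.3 normalized CPM in CK, 28.4, 45.7 and 56.4 in DCM and 45.8, 73.2 and 97.5 in SPM. The genes nearest to Nppb were C4b, a complement gene (0.128), and Pirb, an inhibitory receptor gene of myeloid cells (0.148), against a median of 0.463. C4b had 60.6, 61.2 and 47.2 normalized CPM in CK, 72.8, 66.8 and 64.6 in DCM and 154, 114 and 78.4 in SPM. Nppb ranked 4788 among the genes nearest to Nppa, and Nppa ranked 1103 among those nearest to Nppb, at a difference of 0.369, which is below both medians.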

How the data were processed

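RNA of 9 libraries was compared, 3 each of CK, DCM and SPM, assigned to groups by their deposited titles. The authors filtered reads with fastp and deposited a matrix of raw counts. Their deposited FPKM values are these counts scaled by a single length for each gene and by the total count of the library. The submitters' processing notes name Bowtie 0.12.2 and the builds mm8 and mm9 without a role, and no source used here gives the counting tool or annotation. Identifiers were matched to symbols in GENCODE M21 (22820 of 22851), whose coordinates (GRCm38) are printed, and upstream sequences were taken from RefSeq by symbol.

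Counts were tested in pairs of groups with edgeR 4.0.16 in R 4.3.3 (filterByExpr, TMM, quasi-likelihood test, Benjamini-Hochberg over all genes tested), with limits of 0.05 and a fold change of 1.5. Total counts of 29901300 to 39718680 per library gave every member but Nppc at least 1182 counts in each library. The edgeR steps were tested on simulated data. Ratios within libraries were compared by exact permutation tests. Levels across libraries are CPM scaled by TMM factors, and levels between genes are FPKM. No replicate term was used.

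The members and gene lists were chosen with earlier results of these data known. Named genes were the 8 members, the DEGs and the most abundant genes of the lists, and those nearest to Nppa and Nppb in log2 CPM (prior count 2, mean CPM at least 1). Tmem108, Ramp3, Hdac9, Gata6 and Myocd were named after their values were seen. Not all genes of the rule are given values, and list genes outside the matrix were not analysed here. Alternatives were fold limits of 1.3 and none, DESeq2 1.42.0, limma 3.58.1 on log2(FPKM + 0.1), RLE normalization, other low-count filters, a single fit of all libraries, a replicate block, removal of mitochondrial genes, a GC offset (lowess span 0.3), and each library left out in turn. With 1 library left out, the smaller group keeps 2. Python 3.11.15, scipy 1.17.1 and matplotlib 3.10.9 were used for the rest. Some results near the peptide genes are not reported here.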

Additional observations from a re-analysis of the deposited data

How the results depend on the processing

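Npr3 in SPM compared to CK was a DEG under every alternative run. This call rests on 3 libraries a group, as do all others. The other calls of members, those of Nppa and Nppb, lay near the threshold. Counts of DEGs among the members were 0, 2 and 3 (DCM compared to CK, SPM compared to DCM, SPM compared to CK). They became 2, 4 and 5 with no fold limit, against 10.4%, 16.6% and 27.4% of all genes. The first became 1 with a fold limit of 1.3, where 538 of 14402 genes were upregulated DEGs and 562 downregulated ones. The counts of SPM compared to DCM and of SPM compared to CK became 1 and 1 by DESeq2 and 0 and 1 by limma. Over all genes, DESeq2 gave 470 up and 139 down of 21917, and 819 up and 632 down of 21933. By limma there were 257 up and 129 down of 14493, and 578 up and 903 down of 14574. The GC offset left 1 member in SPM compared to DCM, against 0.869% of all genes. With a library left out the member counts ranged from 0 to 1, 0 to 2 and 1 to 3. The totals over all genes moved as well. In SPM compared to DCM they were 42 up and 14 down of 14828 genes without SPM 2. Without SPM 3 they were 576 up and 215 down of 14948. Counts in the pathway list were 1, 2 and 3. No fold limit gave 6 and 8 in the comparisons of SPM, against 16.6% and 27.4% of all genes. A limit of 1.3 gave 6 in SPM compared to CK, where 1329 of 14574 genes were up and 1203 down. In SPM compared to DCM limma gave 1 and the GC offset 0, with 0 to 2 when a library was left out. Counts of regulators were 0, 0 and 2. They were 2, 4 and 6 at a limit of 1.3. All genes then gave 538 up and 562 down, 858 up and 441 down, and 1329 up and 1203 down. With no limit the regulator counts were 4, 10 and 10, against 10.4%, 16.6% and 27.4% of all genes. No low-count filter gave 1 in DCM compared to CK, where all 22105 genes gave 348 up and 509 down. The filter at 1 CPM and the replicate block each gave 1 (Mef2a) in SPM compared to DCM. All genes there gave 348 up and 109 down of 12610, and 476 up and 134 down of 14493. Limma gave 1 in SPM compared to CK, where 578 of 14574 genes were up and 903 down. With a library left out the counts were 0 to 1, 0 to 1 and 0 to 5.

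Some directions turned. With a library left out, log2 fold changes in DCM compared to CK ranged from −0.32 to 0.062 for Nppa and from −0.14 to 0.38 for Nppb, and in SPM compared to CK from −0.066 to 0.026 for Furin. The GC offset gave 0.018 for Npr1 in SPM compared to DCM, and 0.13 for Furin and 0.0081 for Npr2 in SPM compared to CK. The difference in mean log2 ratio of Nppb to Nppa was 0.06 in SPM compared to DCM (−0.36 to 0.47 with a library left out, below 0 without DCM 3 or SPM 1) and 0.31 in SPM compared to CK (−0.10 to 0.72, below 0 without SPM 1). The cause of these changes was not tested.

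Libraries of the same number had residual correlations of −0.0745 to 0.205 and those of other numbers −0.284 to 0.218. No pairing by number was evident. As the residuals were centred within groups of 3 libraries, the correlations depend on each other and cannot exclude a pairing. With the replicate block the member counts were 0, 2 and 3. Over all genes this block gave 262 up and 306 down of 14402 in DCM compared to CK. The totals were 476 up and 134 down of 14493 in SPM compared to DCM, and 734 up and 548 down of 14574 in SPM compared to CK.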

Other observations

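Genes near Nppb and Nppa on chromosome 4 (within 50 kb) were looked at after the values of the peptide genes had been seen. Plod1, a collagen lysyl hydroxylase gene upstream of Nppb, was downregulated in SPM compared to CK, with a log2 fold change of −0.72 (SE 0.07, edgeR adjusted p = 0.000879), and had −0.53 (SE 0.09, edgeR adjusted p = 0.00214) in DCM compared to CK and −0.19 (SE 0.08, edgeR adjusted p = 0.11) in SPM compared to DCM. Clcn6, a chloride transporter gene downstream of Nppa, had 0.12, 0.13 and 0.25 in DCM compared to CK, SPM compared to DCM and SPM compared to CK, and was a DEG in none of them.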
